A study of Mus musculus with 8 samples.

Results

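The Mirg cluster is a run of miRNA hairpins on the distal end of mouse chromosome 12, from mmu-miR-379 to mmu-miR-3072. Members were the rows of the miRNA table that carry the name of 1 of 36 listed hairpins, with or without a 5p or 3p arm. All 36 hairpins had a row, and they gave 70 of the 1099 mature miRNAs in the table, 34 of them 5p arms and 36 of them 3p arms. Both arms were listed for 34 hairpins, while mmu-miR-758 and mmu-miR-654 were listed by their 3p arm only. miR-1197-5p and miR-654-3p stood at 0 in every library, and the other 68 rows passed the filter on low values. Of these, 58 had a mean of at least 10 RPM over the 8 libraries, as had 499 miRNAs of the whole table.

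The libraries came from KH2-DGCR8 cells, labelled as mouse embryonic stem cells (mESCs), during embryoid body (EB) differentiation. KH2 is a line made to take transgenes that doxycycline (Dox) switches on, and its genotype here names DGCR8. Cells were collected at days 0, 1, 2 and 4 without Dox and at the same days with Dox, 1 small RNA library for each of the 8 conditions and 4 for each treatment. Every library, the untreated ones included, came from the KH2-DGCR8 genotype, so the comparison is of Dox and not of cells with and without the transgene. The labels state neither when Dox was first given nor that the libraries were from separate cultures. P-values therefore measure only the spread between these 8 libraries. For most members it was the spread typical of miRNAs of like level and not the member's own. In the fits between days, the Dox and no-Dox libraries of a day stood in as its replicates. The table holds miRNAs and no mRNA, so the level of DGCR8 itself was not analysed here.

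Members of this cluster lie in the imprinted Dlk1-Dio3 region, whose noncoding RNAs and miRNAs are made from the chromosome inherited from the mother. The miRNAs are cut from long primary transcripts by the Microprocessor, in which DROSHA cleaves the hairpins and DGCR8 binds the RNA; DICER1 then frees the 5p and 3p arms. The cluster is best known from brain and placenta, and miR-134 in it is known for its work in neuronal dendrites. All values below are RPM, miRNA reads scaled to the same total in each library and deposited as whole numbers, and a fold change or log2 change from a fit is on the log2(RPM + 1) scale.

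In the mm10 (GRCm38) annotation all 36 hairpins lie on the plus strand, at chr12:109709060-109747960, a span of 38.9 kb. The listed order was the genomic order for 36 of 36 hairpins, and neighbours were a median of 522 bases apart. The annotated noncoding gene Mirg, chr12:109729764-109749460, holds only the last 13 of them, from mmu-miR-382 to mmu-miR-3072. Among these, 9 overlap an exon of at least 1 of the 12 Mirg transcripts, and mmu-miR-154, mmu-miR-496a, mmu-miR-541 and mmu-miR-409 lie in introns. The first 23, from mmu-miR-379 to mmu-miR-539, lie upstream of its annotated start and outside any long gene annotated on that strand. The name Mirg cluster thus covers more than the annotated gene.

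Mature sequences were matched by name to RefSeq (GRCm38.p6) for 66 of the 70 rows. The 5 most abundant members are shown first, because they carried between 65.9% and 74.5% of the cluster's RPM in a library. Capitals mark the seed, bases 2 to 8 from the 5′ end, which does most of the pairing with target mRNAs.
miR-381-3p: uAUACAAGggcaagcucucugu
miR-300-3p: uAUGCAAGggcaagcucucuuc
miR-379-5p: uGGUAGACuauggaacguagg
miR-134-5p: uGUGACUGguugaccagagggg
miR-541-5p: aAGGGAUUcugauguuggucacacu

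miR-381-3p and miR-300-3p differed by 3 substitutions, written with the base of miR-300-3p first and positions counted from 1 at the 5′ end: G4A, U21G and C22U. The first of these falls in the seed. Their RPM were not tied together, since miR-381-3p ran from 0.789 to 1.47 times miR-300-3p over the libraries. Seeds were shared by few members, and those that shared one are shown next, with miR-411-5p added, whose seed differs from that of miR-379-5p at 1 base, as do those of miR-1197-5p and miR-412-5p.
miR-1193-5p: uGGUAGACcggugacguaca
miR-411-5p: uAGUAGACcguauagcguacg
miR-379-3p: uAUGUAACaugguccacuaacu
miR-411-3p: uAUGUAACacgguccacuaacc
miR-376c-5p: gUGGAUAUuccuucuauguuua
miR-376b-5p: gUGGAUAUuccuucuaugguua
miR-494-5p: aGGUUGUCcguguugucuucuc
miR-410-5p: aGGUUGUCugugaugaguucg

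miR-379-5p and miR-1193-5p have the same seed. miR-379-3p and miR-411-3p share theirs and differ by U10C and U22C, with the base of miR-379-3p first. In every library miR-411-3p stood at 1.01 to 1.08 times miR-379-3p, so these arms could not be separated and are read here as 1 signal. miR-376c-5p and miR-376b-5p differ by U19G, with the base of miR-376c-5p first, and miR-376b-5p stood at 0.892 to 1.36 times miR-376c-5p, so they too are uncertain. No source used here tells how a read matching several miRNAs was assigned. The 3p arms had a further feature in common: the letters ACANGG (N any base, searched on the mature strand and chosen after the sequences were seen) occurred in 11 of 33 3p arms with a sequence, 33.3%, and in 0 of 33 5p arms. Among 860 other rows with a sequence 18 held them, 2.09%. miR-323-3p, miR-1197-3p, miR-369-3p and miR-154-3p are examples.
miR-323-3p: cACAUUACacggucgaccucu
miR-1197-3p: uAGGACACauggucuacuucu
miR-369-3p: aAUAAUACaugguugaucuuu
miR-154-3p: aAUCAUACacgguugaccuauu

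Libraries rested on 362483 to 541342 implied reads, so 1 read was worth 1.85 to 2.76 RPM and 3 reads 5.54 to 8.28 RPM; members near that level are imprecise. As a check of the labelled cell type, miRNAs of the miR-290 cluster, the defining miRNAs of mouse embryonic stem cells, held 46.1% of reads without Dox and 40.5% with Dox at day 0. At day 4 they held 16.3% and 22.9%. Members of the miR-302 cluster, which mark the epiblast stage, held 0.0419% of reads at day 0 and 3.58% at day 4 without Dox, and 0.0328% and 0.237% with Dox. Among markers of other cells, the 8 rows of fibroblast or feeder miRNAs summed to 1823 to 3640 RPM without Dox and 2415 to 2755 RPM with Dox. The 4 neural rows, nearly all miR-9-5p, summed to 3704 to 7449 and 3102 to 5258 RPM. The 3 endothelial rows (miR-126a and miR-126b) summed to 845 to 1170 and 832 to 1600 RPM. The 3 blood rows reached at most 95 RPM, the 3 muscle rows 130 RPM and the liver row, miR-122-5p, 4 RPM; miR-133a-5p was at 0 in all libraries. In these bulk libraries fewer cells of a type and less RNA per cell cannot be told apart.

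Levels along the cluster were very uneven. Of the 70 arms, 16 had a mean of at least 1000 RPM and 34 of at least 100 RPM, and adjacent hairpins could differ by more than their spread over the libraries. miR-381-3p averaged 17740 RPM and ranked 13 among all miRNAs of the table, miR-300-3p averaged 16070 RPM (rank 14) and miR-379-5p 14060 RPM (rank 18). Next came miR-134-5p with 6566 RPM, miR-541-5p with 5826 RPM and miR-411-5p with 2952 RPM. The hairpin mmu-miR-300 summed to 16100 RPM while mmu-miR-376a, which precedes it, summed to 112.1 RPM and mmu-miR-487b, which follows mmu-miR-381, to 196.2 RPM. Summed level and position had a Spearman rho of -0.14 over the 34 hairpins whose major arm had a mean of at least 10 RPM, hairpins that share the same libraries. Level therefore had no steady gradient along the transcript.

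**Figure D1:**
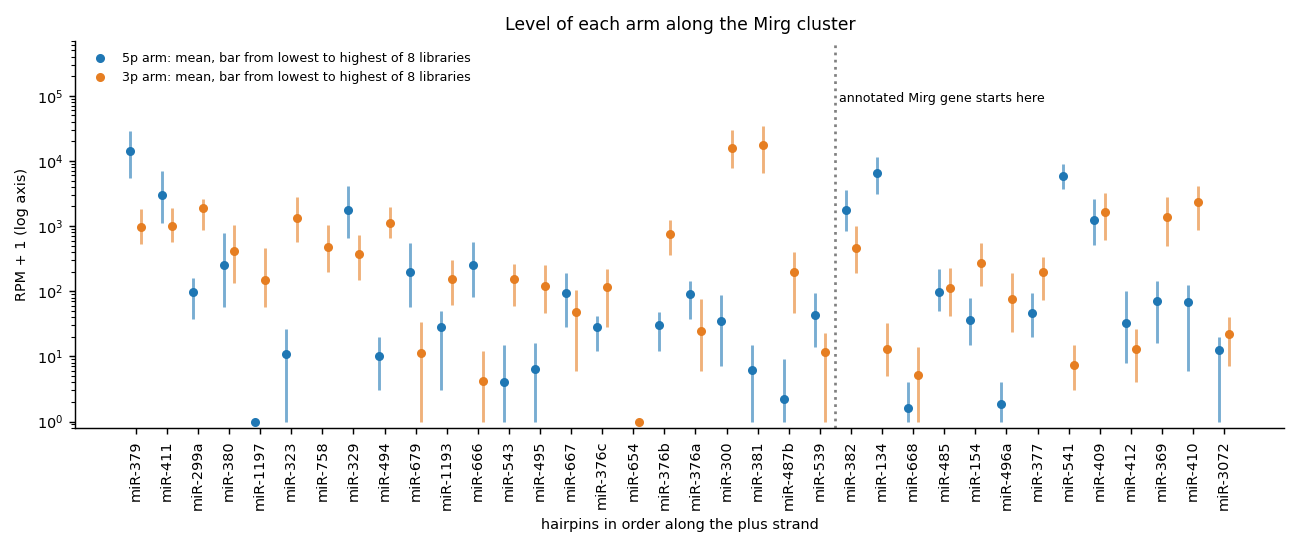
RPM + 1 of the 5p arm (blue) and 3p arm (orange) of each hairpin, in genomic order, on a log axis; points are means and bars run from the lowest to the highest of 8 libraries. The high points, miR-379-5p, miR-300-3p, miR-381-3p, miR-134-5p and miR-541-5p, lie at different places along the run and belong to both arms.

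For 24 hairpins both arms had a mean of at least 10 RPM. The 5p arm was the larger in 10 and the 3p arm in 14, and 22 of the 24 had the same larger arm in all 8 libraries. Some hairpins gave nearly 1 arm only: the 5p share was 99.7% to 99.9% for mmu-miR-134 and 0.0498% to 0.343% for mmu-miR-300. Others gave both: mmu-miR-409 ran from 35.3% to 48.3% 5p and mmu-miR-380 from 29.8% to 43.1%. The larger arm changed between libraries for 2 hairpins. The 5p share of mmu-miR-485 was 62.4% at day 0 without Dox. At day 4 it was 55.0% without Dox and 62.2% with Dox. It lay between 31.4% and 46.9% in the other 5 libraries. The interval for counting error included 50% without Dox at day 0 (47.6% to 74.9%) and day 4 (44.7% to 65.2%). It lay above 50% only with Dox at day 4 (55.1% to 68.9%). It lay below 50% without Dox at day 1 (21.8% to 43.0%) and day 2 (27.9% to 43.1%), and with Dox at day 2 (27.2% to 46.0%). mmu-miR-3072 ran from 0% to 71.4%, but its arms averaged only 11.38 and 20.75 RPM.

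The 5p share with Dox lay on the same side of that without Dox on all 4 days for 5 of the 24 hairpins, with no replicate behind any day. Such hairpins were not counted outside the cluster. It was higher with Dox for mmu-miR-409, at 46.0%, 48.3%, 44.0% and 46.6% on days 0, 1, 2 and 4 against 41.8%, 44.3%, 35.3% and 44.8% without Dox. It was lower for mmu-miR-380, at 29.8%, 36.7%, 33.2% and 33.1% against 34.7%, 43.1%, 38.2% and 42.4%. mmu-miR-376c, mmu-miR-300 and mmu-miR-382 were also lower on each day, by at most 5.6 points for mmu-miR-382 and 0.143 points for mmu-miR-300. For mmu-miR-376c the gap was widest at day 0, with 13.5% with Dox and 25.9% without. The median hairpin moved by 13.9 points between its lowest and highest library, so shifts of a few points lie within the spread of the libraries.

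**Figure D2:**
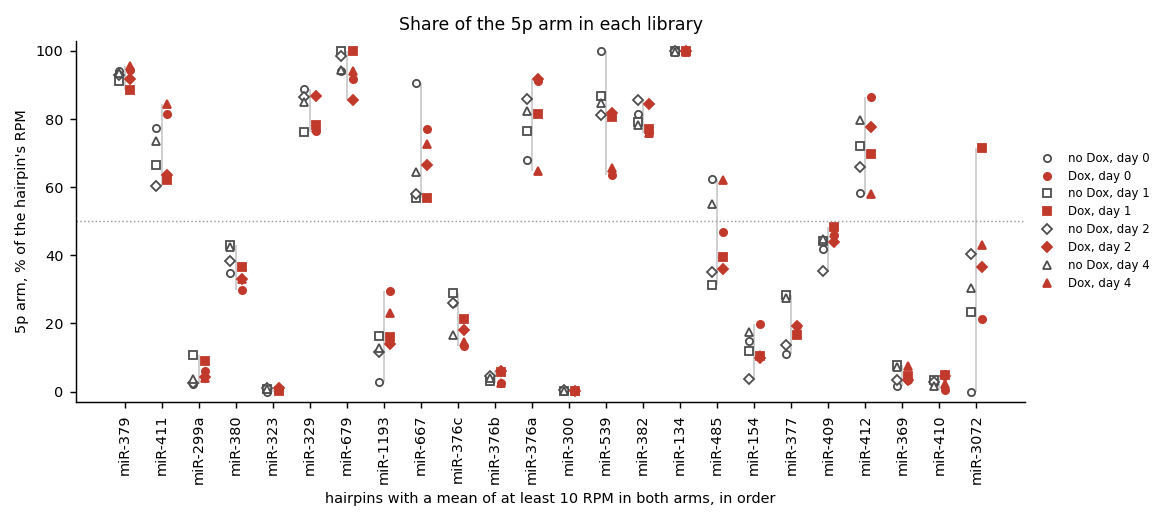
Share of the 5p arm in the RPM of each hairpin, for the 24 hairpins with a mean of at least 10 RPM in both arms; each point is 1 library (open, no Dox; filled, Dox; shape gives the day) and the dotted line is 50%. Points of most hairpins stay on 1 side of the line, while mmu-miR-485 and mmu-miR-3072 cross it.

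The cluster as a whole grew during differentiation. Its share of reads without Dox was 4.69%, 3.92%, 8.81% and 15.4% at days 0, 1, 2 and 4. With Dox it was 6.42%, 5.86%, 8.35% and 14.9%. Both day 4 libraries were above all others, and both day 1 libraries were below the day 0 library of the same treatment. Most of the gain thus came after day 1.

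miR-381-3p had 8607, 6587, 17164 and 29750 RPM at days 0, 1, 2 and 4 without Dox, and 15514, 11267, 18971 and 34043 RPM with Dox. The day 4 libraries did not overlap those of any earlier day, and miR-381-3p rose 2.75-fold from day 0 to day 4 (log2 change 1.46, SE 0.23, limma adjusted p = 1.17e-08). miR-300-3p had 7822, 8350, 16568 and 29817 RPM without Dox and 10578, 12034, 15566 and 27820 RPM with Dox. It rose 3.17-fold (log2 change 1.66, SE 0.23, limma adjusted p = 8e-11), and its day 1 library was above its day 0 library with and without Dox, while that of miR-381-3p was below.

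At the first hairpins of the run, miR-379-5p had 8872, 5458, 11326 and 26837 RPM without Dox and 13346, 6823, 11246 and 28559 RPM with Dox. It fell by 0.83 on the log2 scale from day 0 to day 1 (limma adjusted p = 0.00879) and rose 2.54-fold from day 0 to day 4 (limma adjusted p = 2.99e-07). miR-411-5p, from the next hairpin, had 2029, 1116, 1438 and 5291 RPM without Dox and 3430, 1528, 1846 and 6935 RPM with Dox. It fell by 1.01 on the log2 scale at day 1 (limma adjusted p = 0.00413), stayed below its day 0 level at day 2, and rose 2.3-fold by day 4 (limma adjusted p = 9.85e-05). With median-of-ratios scaling the day 4 call of miR-411-5p was lost (log2 0.6, limma adjusted p = 0.11). miR-299a-3p, from the third hairpin, had 1483, 880, 2031 and 2646 RPM and, with Dox, 1971, 1582, 2165 and 2438 RPM. Its day 4 change, log2 0.57 with SE 0.28, did not pass (limma adjusted p = 0.124).

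Among the other abundant members, miR-134-5p had 3221, 3053, 7632 and 11562 RPM without Dox and 3600, 4513, 7536 and 11411 RPM with Dox, and rose 3.37-fold by day 4 (limma adjusted p = 1.86e-10). miR-382-5p, which lies beside it, had 827, 852, 2064 and 3542 RPM and, with Dox, 831, 1176, 1999 and 2980 RPM, a rise of 3.92-fold (limma adjusted p = 1.32e-10). Without Dox the largest relative step of both was from day 1 to day 2. miR-541-5p had 3999, 3739, 5383 and 9057 RPM without Dox and 4092, 6211, 5260 and 8871 RPM with Dox, and rose 2.22-fold (limma adjusted p = 6.29e-05). This call for miR-541-5p was lost with median-of-ratios scaling (log2 0.55, limma adjusted p = 0.12) and when scaled to all reads but those of the miR-290 cluster (log2 0.64, limma adjusted p = 0.0549). miR-329-5p had 1190, 663, 1594 and 4127 RPM without Dox and 1014, 1379, 1882 and 2329 RPM with Dox, and rose 2.82-fold (limma adjusted p = 2.07e-06), with its Dox libraries rising more evenly from day to day.

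Close to the end of the run, miR-410-3p was higher at day 2 than at day 4 without Dox. It had 880, 1136, 4194 and 3810 RPM without Dox and 1167, 1493, 2597 and 3255 RPM with Dox. It rose 3.47-fold from day 0 to day 4 (limma adjusted p = 2.39e-09). miR-369-3p, from the neighbouring hairpin, peaked at day 2 in both treatments, with 865, 500, 2773 and 1840 RPM without Dox and 746, 676, 1870 and 1744 RPM with Dox. Its rise from day 1 to day 2 was log2 1.97 with SE 0.29 (limma adjusted p = 8.57e-09).

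**Figure D3:**
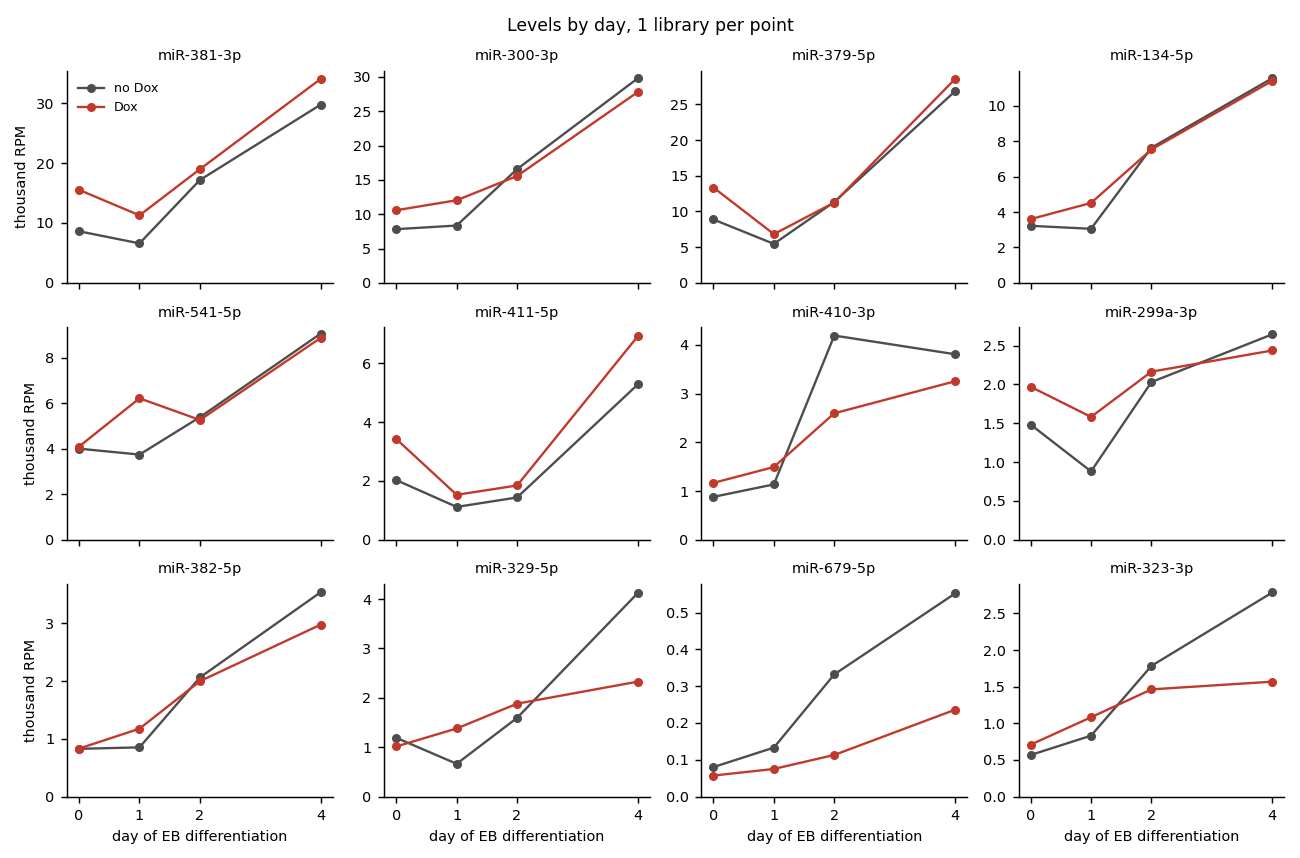
RPM (axis in units of 1000) by day of EB differentiation (days 0, 1, 2 and 4) for the 10 members with the highest mean, miR-679-5p and miR-323-3p; grey, no Dox, and red, Dox, with 1 library per point. The 5 most abundant members end close together in both treatments, while miR-329-5p, miR-679-5p and miR-323-3p are lower with Dox at day 4.

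From day 0 to day 4, 51 of the 68 members tested rose and 0 fell, by limma's moderated test with Benjamini-Hochberg adjustment over 839 miRNAs. Over all 839 miRNAs 21.9% rose and 3.81% fell. The median change was log2 1.68 for the members and 0.56 for all miRNAs tested. Above 0 were 66 of the 68 members and 576 of all 839 miRNAs. Both day 4 libraries stood above both day 0 libraries for 56 of the 58 members with a mean of at least 10 RPM, against 52.7% of the 499 such miRNAs. Members on both sides of the annotated Mirg start moved alike, with a median of 1.62 upstream and 1.77 within. The number of calls depended on how libraries were scaled. With median-of-ratios scaling the median of all miRNAs fell to 0.01 and that of the members to 1.11, and 30 of the 68 members rose while 0 fell. Over all miRNAs the split of 184 higher and 32 lower became 101 and 61. Without the day 0 library that had no Dox 28 members were called, and without the day 4 library that had no Dox 32.

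The largest called rise was that of miR-667-3p, which had 5, 29, 83 and 105 RPM without Dox and 8, 31, 43 and 72 RPM with Dox (log2 change 3.58, SE 0.58, limma adjusted p = 1.5e-08). The day 0 values rest on a few reads. miR-543-5p, miR-668-3p, miR-3072-5p and miR-666-3p had the next largest fitted rises, but each stood at 0 or close to it at day 0 and reached at most 14, 13, 19 and 11 RPM, so no fold is given. miR-380-5p and miR-380-3p, the arms of 1 hairpin, rose together: 75 and 57 RPM at day 0 became 775 and 321 RPM at day 4 for the 5p arm (7.53-fold, limma adjusted p = 4.32e-12). The 3p arm went from 141 and 134 RPM to 1051 and 648 RPM, without and with Dox (5.97-fold, limma adjusted p = 9.91e-12). Of the 24 hairpins with both arms above the minimum, 16 had both arms called higher, 6 had 1 arm and 2 had neither. Hairpins outside the cluster were not counted in this way, and 21.9% of all 839 miRNAs were called higher. mmu-miR-379 and mmu-miR-411 are both among the 16, though their 3p arms are read as 1 signal.

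The 17 members not called at day 4 were mostly low, such as miR-134-3p and miR-154-5p. The better measured ones were miR-376b-3p, at 822, 358, 1008 and 990 RPM without Dox and 749, 471, 468 and 1223 RPM with Dox (log2 change 0.49, limma adjusted p = 0.266), miR-377-3p (log2 change 0.87, limma adjusted p = 0.0843) and both arms of mmu-miR-299a. miR-376b-3p was lowest at day 1 without Dox and at day 2 with Dox. Both its day 4 libraries stood above both its day 0 libraries, though the fitted change did not pass.

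The rise was not spread evenly over the days. Between day 0 and day 1 only 3 members rose (miR-667-3p, miR-487b-3p and miR-410-5p), against 7.03% of all miRNAs, and 3 fell (miR-379-5p, miR-411-5p and miR-376b-3p), against 1.07%. The median was log2 0.13 for the members and 0.37 for all. Between day 1 and day 2, 12 members rose, against 2.74%, and 0 fell, against 0.834%, with medians of 0.87 and 0.00. Between day 2 and day 4, 11 members rose, against 5.48%, and 0 fell, against 3.81%, with medians of 0.70 and 0.17. With median-of-ratios scaling the calls at day 1 were 2 higher and 6 lower for the members and, over all miRNAs, went from 59 higher and 9 lower to 35 and 34. From day 1 to day 2 the calls over all miRNAs went from 23 and 7 to 21 and 11 under either other scaling, with 12 members higher. From day 2 to day 4 they went from 46 and 32 to 38 and 42 with median-of-ratios scaling, with 8 members higher, and to 20 and 64 when scaled to all reads but those of the miR-290 cluster, with 4 members higher. Members rising from day 1 to day 2 included miR-369-3p, miR-410-3p, miR-409-3p, miR-154-3p, miR-382-5p and miR-134-5p. Members rising from day 2 to day 4 included miR-411-5p, miR-329-5p, miR-300-3p and miR-541-5p, while miR-379-5p and miR-381-3p passed in both steps. These lists rest on the threshold. In the 2 steps miR-300-3p rose by log2 0.68 and 0.84, miR-329-5p by 0.86 and 0.84, and miR-134-5p by 1.03 and 0.60. More uneven were miR-369-3p, with 1.97 and -0.35, and miR-411-5p, with 0.32 and 1.89. Overlap between the steps was not counted over all miRNAs. Each step rests on 4 libraries and shares a day with the next. Single libraries moved the counts widely, over all miRNAs as well as for the members. The 3 higher and 3 lower calls at day 1 became 0 higher without the Dox library of day 1, 1 higher without the untreated library of day 0 and 5 higher without the Dox library of day 4. The lower calls became 0 without the Dox library of day 0 or either library of day 1, and 1 without either library of day 2. The 12 calls from day 1 to day 2 became 1 without the untreated library of day 1, 0 without the untreated library of day 2, 3 without the Dox library of day 2, and 20 without either day 4 library. The 11 calls from day 2 to day 4 became 2 and 1 without the untreated and the Dox library of day 2, and 6 and 18 without the untreated and the Dox library of day 4.

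**Figure D4:**
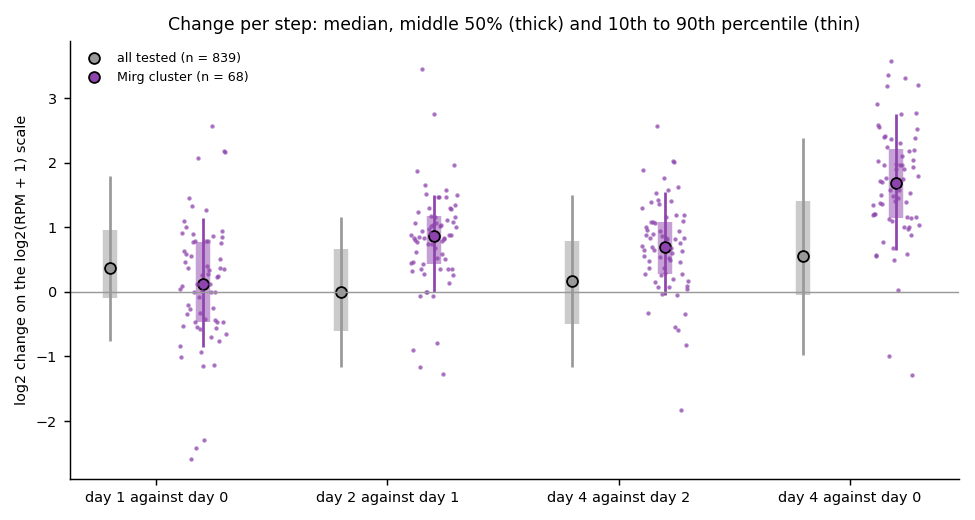
Fitted log2 change on the log2(RPM + 1) scale for each step and for day 4 against day 0; purple, the 68 members (dots, 1 per miRNA), and grey, the 839 miRNAs tested. The medians of the members lie below that of all miRNAs at day 1 (0.13 and 0.37) and above it in the later steps.

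Without Dox 48 of the 58 members with a mean of at least 10 RPM were highest at day 4, 9 at day 2 and 1 at day 1. With Dox 47 were highest at day 4 and 9 at day 2. Only 3 members peaked at day 2 in both treatments: miR-485-3p, miR-369-3p and miR-410-5p. The day at which members were lowest was day 1 for 32 and day 0 for 26 without Dox, and day 1 for 19, day 0 for 36 and day 2 for 3 with Dox. Highest and lowest days were not counted over the 499 miRNAs, where 52.7% had both day 4 libraries above both day 0 libraries. How far these counts are particular to the members was not tested. The day 4 to day 0 change had a median of log2 1.91 without Dox, above 0 in 58 of 58 members, and 1.34 with Dox, above 0 in 56. For the 499 miRNAs the medians were 0.58 and 0.63, and 359 and 353 of them were above 0.

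Across the 4 days, few members differed with Dox. In the fit over all days 0 of 68 members were higher with Dox and 1 was lower, against 1.31% and 0.596% of all 839 miRNAs. At an unadjusted p under 0.05, 7 of 68 members passed and 88 of all 839 miRNAs. With limma-voom on implied reads 0 members were higher and 1 lower, and 12 and 8 of all miRNAs. The median Dox change was log2 -0.03 for the members and 0.03 for all. The member called lower was miR-679-5p, shown with its seed in capitals.
miR-679-5p: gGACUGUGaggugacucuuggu

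miR-679-5p had 80, 133, 332 and 552 RPM at days 0, 1, 2 and 4 without Dox, and 57, 75, 113 and 236 RPM with Dox. It was lower with Dox on each day and rose over the days in both treatments. The ratio of Dox to no Dox was 0.718 at day 0 (95% interval for counting error 0.395 to 1.28), 0.565 at day 1 (0.367 to 0.859), 0.339 at day 2 (0.243 to 0.469) and 0.429 at day 4 (0.341 to 0.538). The fitted change was a drop of log2 -1.02 with SE 0.29 (limma adjusted p = 0.0251). This call was lost when the pair of libraries of day 1, day 2 or day 4 was left out. It was also lost without the filter on low values, without the robust option, and with day left out or as a straight line.

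miR-381-3p and miR-411-5p leaned the other way, and were higher with Dox on all 4 days. The 4 libraries of miR-381-3p with Dox stood at 1.8, 1.71, 1.11 and 1.14 times those without it, in order of day, and the fitted change of log2 0.49 with SE 0.16 did not pass (limma adjusted p = 0.0934). Without the day 4 pair, miR-381-3p and miR-299a-5p were called higher, 2 of 65 members tested, against 9 of all 774 miRNAs tested. For miR-411-5p these ratios were 1.69, 1.37, 1.28 and 1.31 (log2 0.49, SE 0.19, limma adjusted p = 0.213). Of the 58 members with a mean of at least 10 RPM, 6 were higher with Dox on every day and 3 lower, against 47 and 51 of 499 miRNAs.

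The Dox ratio of many members turned over between day 1 and day 2. Their median log2 ratio was 0.22 at day 0, 0.47 at day 1, -0.20 at day 2 and -0.13 at day 4, while that of the 499 miRNAs was 0.02, 0.07, -0.09 and -0.06. At day 0, 16 of 58 members were at least 1.5-fold higher with Dox and 7 lower, against 19.4% and 16.0% of the 499. At day 1 the counts were 22 and 3, against 19.6% and 11.2%. At day 2 they were 3 and 18, against 12.8% and 22.2%. At day 4 they were 2 and 17, against 19.4% and 24.6%. A ratio above 1 at days 0 and 1 and below 1 at day 4 was found for 21 of 58 members, 36.2%, and for 14.4% of the 499. Each of these ratios compares 1 library with 1 other.

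The turn was not established by the test of a changing ratio. In the fit with the product of treatment and day, 0 of 68 members passed in the rising direction and 0 in the falling, against 0.238% and 0.715% of all miRNAs. At an unadjusted p under 0.05, 13 of 68 members passed and 95 of all 839 miRNAs. limma-voom called 0 and 0 of the members, and 2 rising and 6 falling of all miRNAs. The slope was below 0 for 58 of 68 members and for 459 of all 839 miRNAs, with medians of log2 -0.19 and -0.04 per day. Scaled to all reads but those of the miR-290 cluster, these medians were -0.13 and 0.01, and the calls over all miRNAs went from 2 rising and 6 falling to 6 and 5. miR-1197-3p, described further on, had one of the steeper slopes (log2 -0.53 per day, SE 0.19, limma adjusted p = 0.179). Leaving out the day 0 pair brought 1 call, miR-329-5p, in the falling direction.

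The day 4 ratios are described here hairpin by hairpin, for the larger arm of each of the 34 hairpins with a mean of at least 10 RPM. At day 4 the 95% counting interval of the Dox ratio lay above 1 for 7 of 58 members and below 1 for 22. These 58 had a mean of at least 10 RPM, as had the 499 miRNAs, of which 23.6% and 29.1% lay so. For the 34 larger arms alone it lay above 1 for 5 and below 1 for 16. Those below 1 included 9 neighbours in a row, from mmu-miR-380 to mmu-miR-666, with ratios from 0.303 to 0.686; this was the longest such row on any day and was picked out after the values were seen. Their first bases span 5.3 kb. Outside the row the interval also lay below 1 for miR-300-3p, miR-487b-3p, miR-539-5p, miR-382-5p, miR-409-3p, miR-412-5p and miR-410-3p. These ratios ran from 0.335 (0.179 to 0.605) for miR-412-5p to 0.933 (0.91 to 0.956) for miR-300-3p. The 3 hairpins on either side had no interval below 1: miR-379-5p had 1.06 (1.04 to 1.09), miR-411-5p 1.31 (1.24 to 1.39) and miR-299a-3p 0.922 (0.847 to 1.0) before the row, and miR-543-3p 1.06 (0.791 to 1.43), miR-495-3p 0.964 (0.732 to 1.27) and miR-667-5p 1.01 (0.737 to 1.39) after it.

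Within the row the lowest ratio was that of miR-1197-3p, which had 56, 80, 171 and 463 RPM without Dox and 68, 91, 100 and 140 RPM with Dox. Its day 4 ratio was 0.303 (0.228 to 0.399), while its intervals at days 0 and 1 included 1. miR-323-3p had 567, 831, 1784 and 2786 RPM without Dox and 708, 1082, 1463 and 1568 RPM with Dox, so that its Dox libraries were the higher at days 0 and 1 and the lower at days 2 and 4. Its day 4 ratio was 0.563 (0.513 to 0.617). miR-758-3p had 279, 198, 662 and 1043 RPM and, with Dox, 323, 284, 472 and 586 RPM, with a day 4 ratio of 0.562 (0.482 to 0.654). miR-329-5p was at 0.564 (0.523 to 0.609) and miR-494-3p, from 1984 RPM in the untreated and 1313 RPM in the Dox library, at 0.662 (0.596 to 0.736). The row thus held hairpins whose larger arm is 5p (mmu-miR-329, mmu-miR-679, mmu-miR-666) as well as 3p.

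Summed over both arms, the 9 hairpins of the row had 3585, 3333, 7082 and 14525 RPM without Dox and 3899, 5082, 6434 and 8463 RPM with Dox, ratios of 1.09, 1.52, 0.909 and 0.583 at days 0, 1, 2 and 4. The 3 hairpins before them had ratios of 1.5, 1.38, 1.04 and 1.05. The 11 hairpins from mmu-miR-543 to mmu-miR-539 had 1.54, 1.56, 0.999 and 1.04, and the 13 within annotated Mirg 1.04, 1.49, 0.837 and 0.912. The sum of the 11 was mostly mmu-miR-300 and mmu-miR-381, with 29905 and 29764 of 62416 RPM at day 4 without Dox. Among the 11, the day 4 interval lay below 1 for miR-300-3p (0.933), miR-487b-3p (0.646) and miR-539-5p (0.453). It lay above 1 for miR-376b-3p (1.23) and miR-381-3p (1.14). At day 1 all 4 stretches were higher with Dox, by 1.38 to 1.56 times. At day 0 the row and the 13 hairpins within Mirg were near 1 and the others near 1.5. With 1 library for each condition, none of these differences between stretches was tested. The miR-302 cluster differed between the day 4 libraries as well, with 3.58% of reads without Dox and 0.237% with Dox, and the miR-290 cluster with 16.3% and 22.9%; their part in the day 4 ratios was not tested.

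Arms of 1 hairpin did not always share a ratio. At day 4 miR-379-5p was at 1.06 and miR-411-5p at 1.31, but the inseparable miR-379-3p and miR-411-3p were at 0.698 (0.626 to 0.778) and 0.675 (0.607 to 0.752). miR-379-3p had 567, 529, 885 and 1824 RPM without Dox and 776, 892, 985 and 1273 RPM with Dox. At day 0 miR-329-5p was at 0.852 (0.743 to 0.977) and miR-329-3p at 2.09 (1.52 to 2.9). Both arms of mmu-miR-380 were low at day 4, at 0.415 (0.341 to 0.503) for the 5p arm and 0.617 (0.532 to 0.715) for the 3p arm. Minor arms elsewhere in the row did not all share the low ratio. At day 4 miR-329-3p was at 0.931 (0.793 to 1.09) and miR-1193-5p at 1.09 (0.562 to 2.17). The scarce miR-323-5p and miR-679-3p were at 0.298 (0.067 to 1.07) and 0.446 (0.158 to 1.19).

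At the other days the intervals of the 34 larger arms fell as follows. At day 0 they lay above 1 for 9 and below 1 for 2, against 17.6% and 13.0% of the 499 miRNAs. The first 3 hairpins, from miR-379-5p (1.5) through miR-411-5p (1.69) to miR-299a-3p (1.33), were all above 1. At day 1 they lay above 1 for 21, against 20.4%, and below 1 for 1, miR-679-5p, against 13.8%. miR-376c-3p had the highest of these, 3.47 (1.82 to 7.19), from 27 RPM without Dox and 93 RPM with Dox. At day 2 they lay above 1 for 3, against 16.6%, and below 1 for 14, against 25.5%. The 34 leave out the minor arms, which the 499 include. For all 58 members with a mean of at least 10 RPM, days 0, 1 and 2 gave 15, 29 and 4 intervals above 1. Below 1 they gave 2, 1 and 18. Several of the low ratios at day 2 lay in the last part of the run: miR-154-3p was at 0.47 (0.374 to 0.588), miR-409-3p at 0.601 (0.548 to 0.658), miR-369-3p at 0.674 (0.617 to 0.736) and miR-410-3p at 0.619 (0.575 to 0.666). miR-376b-3p was at 0.464 (0.393 to 0.547). By day 4 miR-154-3p, miR-369-3p and miR-376b-3p were at 0.969, 0.948 and 1.23. miR-409-3p at 0.67 (0.617 to 0.727) and miR-410-3p at 0.854 (0.796 to 0.917) were still below 1.

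**Figure D5:**
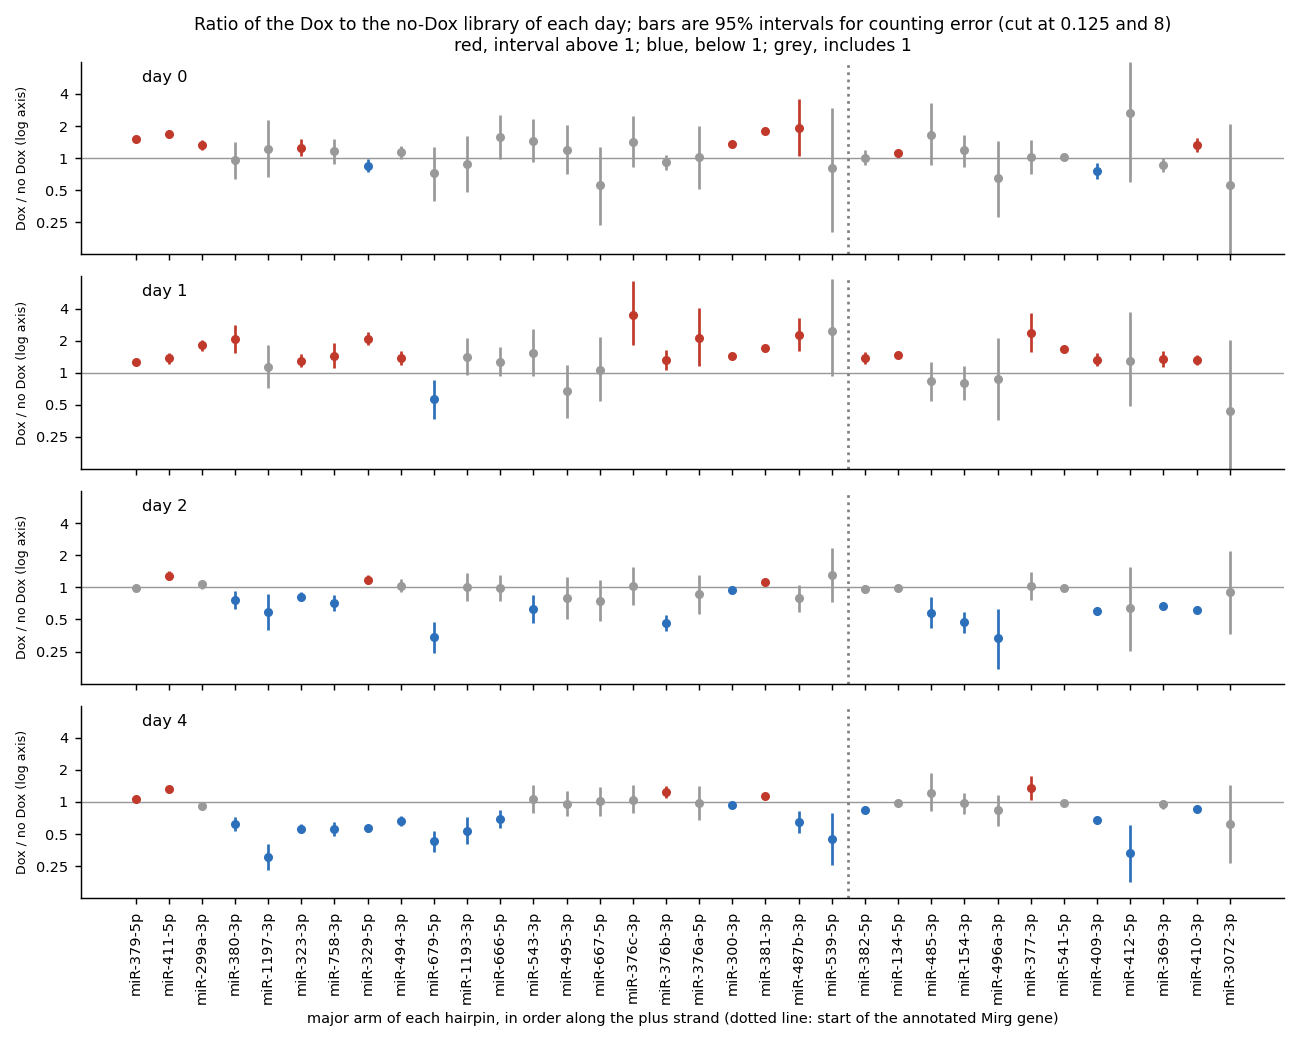
Ratio of the Dox to the no-Dox library on days 0, 1, 2 and 4 (log axis) for the larger arm of 34 hairpins in genomic order; bars are 95% intervals for counting error only, red above 1, blue below 1 and grey including 1. Red points prevail at day 1 (21 of 34), and at day 4 the 9 hairpins from mmu-miR-380 to mmu-miR-666 are blue in an unbroken row.

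The cluster's total hid these differences, because its 5 most abundant members hold most of it. The whole cluster had a Dox ratio of 1.37, 1.49, 0.948 and 0.968 at days 0, 1, 2 and 4. Without the 5 most abundant members it was 1.2, 1.48, 0.833 and 0.812. Upstream of annotated Mirg the ratio was 1.48, 1.5, 1.0 and 0.983, and within it 1.04, 1.49, 0.837 and 0.911. Position along the run and the Dox ratio of the hairpin had a Spearman rho of -0.21, -0.06, -0.27 and 0.19 on the 4 days over 34 hairpins, which describes no steady gradient.

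Other miRNAs of the same imprinted region lie upstream, 10 rows antisense to Rtl1 (such as miR-127-3p and miR-434-5p) and 18 rows from Meg3 and Rian. The anti-Rtl1 rows held 1.4%, 1.35%, 2.84% and 4.41% of reads without Dox and 1.23%, 1.7%, 2.18% and 4.26% with Dox. All 10 rose from day 0 to day 4, with a median of log2 1.98, and of 17 tested Meg3 and Rian rows 9 rose, with a median of 1.11. Their Dox ratios by day were 0.879, 1.26, 0.768 and 0.966 for the anti-Rtl1 rows and 1.43, 1.31, 0.891 and 0.872 for Meg3 and Rian. Both were thus above 1 at day 1 and below 1 at days 2 and 4, as the Mirg cluster was; no test of a difference between these lists was made.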

How the data were processed

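Small RNA libraries of 8 conditions were analysed, 1 per condition. Per the labels' protocols, TRIzol was used for total RNA and an NEBNext kit for the libraries. The submitters' processing notes name Bowtie and mm10. Which tool counted the reads, against which annotation, and how multiply matching reads were treated, are not given in the sources used. The deposited values are scores: RPM that the authors rounded to whole numbers. Each library sums to close to a common total, and 1 row that names no miRNA was left out.

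For each library 1 read total between 100000 and 700000 made every value a whole number of reads within 0.5 RPM; on simulated libraries this search recovered all reads exactly in 8 of 8. Intervals for ratios are exact conditional binomial intervals and those for shares are Wilson intervals, at 95% on these implied reads, and cover counting error only.

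The 839 miRNAs with 2 or more libraries at a value of 1 or above were tested on log2(value + 1) with limma 3.58.1 in R 4.3.3, using the mean-variance trend and the robust option. Benjamini-Hochberg adjustment covered all 839, at a threshold of 0.05. The Dox fits held day as a factor, and the fits for days held treatment. The prior degrees of freedom were infinite for all but 39 miRNAs (2 of them members) in the additive fit, so most SEs come from the trend. Scripts were tested on simulated data. Other tables used Python 3.11.15.

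Named members are the 10 with the highest mean, any called for Dox or a changing Dox ratio, and the 5 called members with the largest rise at day 4 (none fell); hairpins were named for arm shares where both arms had a mean of at least 10. Others were named after their values were seen. Members, marker lists and comparison lists were chosen with earlier results of these data known. Alternatives varied the pseudocount (0.5 and 5), the filter, the scaling, the robust option, the model and the libraries included. Hairpin positions and gene models are from GENCODE and RefSeq for GRCm38; mmu-miR-666 was placed by its mature arms.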

Additional observations from a re-analysis of the deposited data

How the results depend on the processing

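With 1 library per condition, differences between a pair of libraries carry no replicate error, and members under 10 RPM rest on a few reads. For each result below the cause of a moved count was not tested, except that leaving out libraries leaves less to test with. With no filter, both the spread shared between miRNAs and the adjustment were computed over 1099 rows. miR-381-3p at day 4 then kept log2 1.46 while its limma adjusted p went from 1.17e-08 to 0.079. Of the 237 alternative values of the day 4 change for 15 members named by level or rise, 236 kept the direction, 28 lost the call and 1 gained it (miR-299a-3p without the Dox library of day 4, log2 0.85, limma adjusted p = 0.0248). miR-299a-3p turned to log2 -0.03 with median-of-ratios scaling.

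Members higher at day 4 than at day 0 numbered 51, and 4 with no filter, 30 with median-of-ratios scaling, 31 when scaled to all reads but those of the miR-290 cluster, and 28 to 51 when 1 library was left out. For day 1 against day 0, 3 higher became 0 with no filter, 0 without the robust option, 1 with limma-voom, and 0 to 5 with 1 library left out. The 3 lower became 0 with no filter, 6 with median-of-ratios scaling, 0 without the robust option, and 0 to 3 with 1 library left out. For day 2 against day 1, 12 higher became 0 with no filter, 0 without the robust option, and 0 to 20 with 1 library left out. For day 4 against day 2, 11 higher became 0 with no filter, 4 when scaled to all reads but those of the miR-290 cluster, 3 without the robust option, and 1 to 18 with 1 library left out. The single member lower with Dox became 0 with no filter, without the robust option, without the day 1, day 2 or day 4 pair, with no day term, and with day as a linear term. Members higher with Dox numbered 0, and 2 without the day 4 pair. Members whose Dox ratio fell with day numbered 0, and 1 without the day 0 pair. The Dox fits paired the libraries by day. Calls over all miRNAs, higher and lower together, fell as well, and they also moved when 1 library was left out. With no filter 216 became 30 for day 4 against day 0 and 68 became 1 for day 1 against day 0. Likewise 30 became 2 for day 2 against day 1, and 78 became 3 for day 4 against day 2. In the Dox fit over all days 16 became 0. Without the robust option the counts were 157, 13, 0, 25 and 0 in the same order.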
